A study of Mus musculus with 6 samples.

Results

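The genes described here encode the parts of the lysosome that digest, and the pump that acidifies it. They comprise the V-ATPase, as every gene whose symbol starts with Atp6v or Atp6ap and that a probe set names alone. V-ATPase genes read only by probe sets that name several genes are therefore left out. A list of 35 lysosomal hydrolases, cofactors and membrane proteins was added, in which cathepsins were not included. The arrays measured 54 of these genes, out of 12393 genes with a probe set of their own: 21 of the V-ATPase, 24 hydrolases and cofactors, and 9 membrane proteins. Of the 35 listed genes 33 had such a probe set, and Cd63 and Arsb had none that names them alone. The rule for membership uses symbols and not measured values, but it was set with earlier results of these data known. Of the 54 members 26 had 1 probe set, and for the other 28 the brightest by the mean over all 6 arrays stood for the gene, with 47 dimmer ones kept apart.

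Total muscle RNA was hybridized to Affymetrix arrays, 1 for each of 3 WT and 3 TFEB KO mice. All mice were C57BL/6 and 1 month old. Per the study, TFEB KO mice carried a floxed Tcfeb gene, the mouse TFEB gene, and a Cre recombinase under the MLC1f promoter, for a deletion specific to muscle. MLC1f is a myosin light chain of muscle fibers, and whether other cells within the muscle kept the gene was not measured here. The sources used here do not name the muscle taken, or say whether the WT mice carried the floxed alleles or Cre. Values are log2 intensities as the authors normalized them by RMA, a method that gives no zero, and a difference is the TFEB KO mean minus the WT mean on that scale.

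Lysosomes break down proteins, glycans, lipids and whole organelles delivered by endocytosis and autophagy. Their hydrolases work in acid, which the V-ATPase maintains: its V1 part, in the cytosol, splits ATP, and its V0 part, in the membrane, carries the protons. Membrane proteins line the organelle and export what is digested. TFEB is a transcription factor of the MiT/TFE family known for binding an E-box, the CLEAR element, near the start of many lysosomal genes, and muscle leans on lysosomes for glycogen breakdown and for the turnover of mitochondria.

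The Tfeb probe set read 8.61, 8.55 and 8.96 in WT and 7.10, 7.23 and 7.04 in TFEB KO, a fall of 2.99-fold (log2 difference -1.58 ± 0.13, SE, limma adjusted p = 0.0079). The sources used here do not say whether it lies in the deleted part. Over all probe sets, arrays of a group correlated at 0.992 to 0.997 and arrays of different groups at 0.989 to 0.993. The 8 skeletal muscle fiber markers were all measured, and 0 passed the test (differences -0.10 to 0.15). A summed level, here and below, is log2 of the sum of the unlogged values of a list, in which bright genes weigh most. Of 17 macrophage markers 8 rose and 0 fell (median difference 0.85), and their summed level was 11.09 to 11.82 in WT and 12.32 to 13.02 in TFEB KO. Of 6 endothelial markers 3 fell and 0 rose (median -0.77, summed level 10.42 to 10.55 in WT and 9.81 to 9.96 in TFEB KO), while 0 of 5 fibroblast and 0 of the 4 measured osteoclast markers passed the test. In whole muscle, fewer cells of a type and less RNA per cell cannot be told apart.

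In TFEB KO muscle, 0 of 54 lysosomal members rose and 0 fell on their brightest probe set at an adjusted p of 0.05 (limma). In the background of all 12393 genes, 0.871% were higher and 0.702% lower at that threshold. The smallest adjusted p among the members was 0.099, for Atp6v1h, the regulatory H subunit of V1. The differences ran from -0.45 for Laptm4a, a transmembrane protein of late endosomes and lysosomes, to 0.80 for Npc1, the membrane protein that moves cholesterol out of lysosomes. Of the members 32 lay above 0 and 22 below, and of all 12393 genes 5779 lay above and 6614 below.

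At an unadjusted p of 0.05, 8 members (14.8%) were higher in TFEB KO, against 8.49% of all genes, and 3 (5.56%) were lower, against 8.66%. The 3 WT arrays did not overlap the 3 TFEB KO arrays for 7 members that were higher (13%, against 10.8% of all genes) and for 6 that were lower (11.1%, against 12.9%). The median difference was 0.06 for the members and -0.01 for all genes, with quartiles of -0.10 and 0.19 for the members and of -0.13 and 0.11 for all genes. The median absolute difference was 0.15 for the members and 0.12 for all genes.

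A p that misses the threshold does not show that a gene was the same in both groups, so the 95% intervals state what the arrays allow. For 37 of 54 members the interval lay wholly within 0.5 on either side of 0 on the log2 scale, as it did for 9129 of 12393 genes. For 53 of 54 it lay within 1 on either side, as it did for 12050 of 12393 genes, and Npc1 was the exception. For 11 of 54 members it reached a change of 1.5-fold in either direction, as it did for 2032 of 12393 genes.

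**Figure D1:**
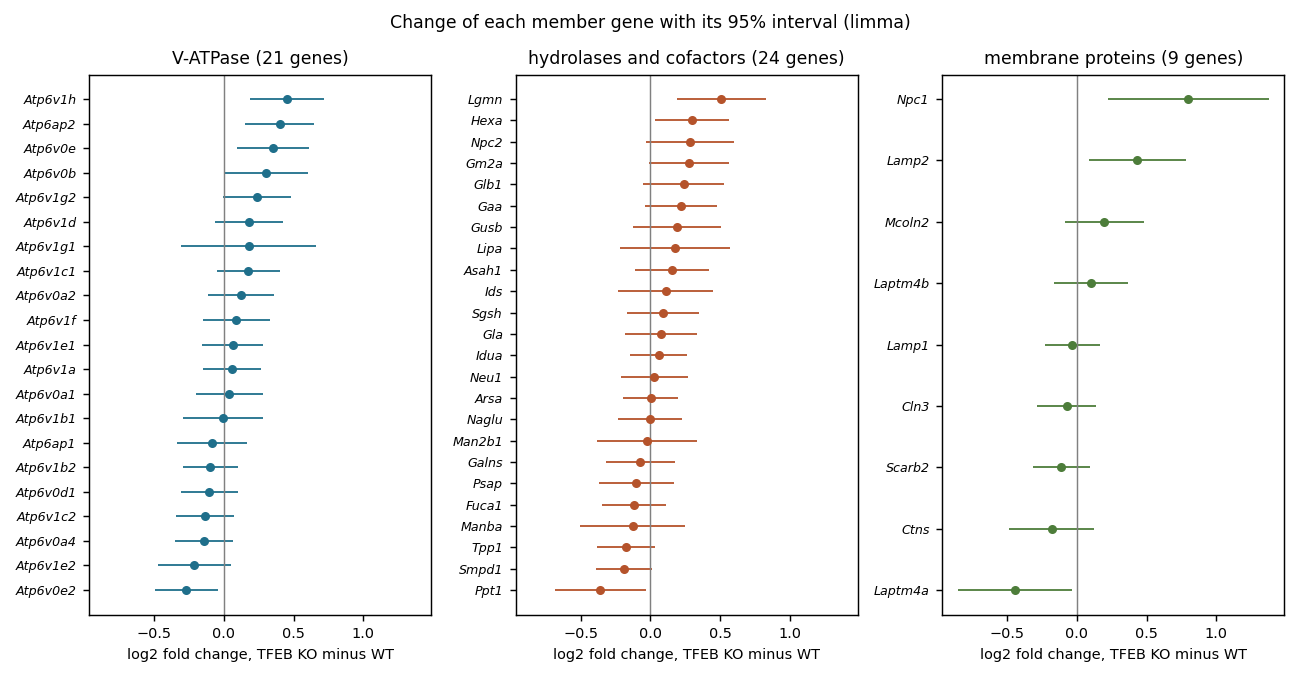
Log2 difference (TFEB KO minus WT) of each of the 54 members on its brightest probe set, with its 95% interval, by group. The points run from -0.45 (Laptm4a) to 0.80 (Npc1), and 0 of 54 passed the adjusted test.

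RefSeq promoters (build GRCm38.p6, from 250 bases before to 50 after the gene start) were read for the E-box to which TFEB is known to bind, a feature that the choice of members did not use. Distances are counted from the base 250 bases into each window. For 60.1% of plus-strand promoters this was the gene start listed in RefSeq, and for the rest it was not. The table held 45 of the 54 members and not Asah1, Laptm4b, Npc1, Atp6v1g1, Atp6v1b2, Atp6v1c1, Galns, Atp6v0a2 or Atp6v1h. The motif was TCACGTG or CACGTGA, which are each other's reverse complement, so that both strands were searched. It contains the core CACGTG and lies inside the longer TCACGTGA. It stood in 13 of 45 member promoters (28.9%), against 603 of 9887 genes on the arrays (6.1%) and 1160 of 27025 genes in the whole table (4.29%). By group these were 4 of 16 V-ATPase genes, 7 of 22 hydrolases and cofactors, and 2 of 7 membrane proteins. The core alone was in 14 members (31.1%) and in 10.8% of array genes, and the 8-base form was in 5 members (11.1%) and in 1.76% of array genes. The element is already known near the start of many lysosomal genes, so its share among the members is no independent result. A match is a description of these letters and not a measured binding site.

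The sequences below, on the strand of the gene with the E-box in capitals, show 3 of the 4 promoters with several copies, the single 8-base copies in V-ATPase genes, and Lgmn and Gaa, 2 hydrolases described with their array values further on. Lamp1 (chr8:13159088-13159160, plus strand) had 4 copies within 61 bases of its start. Cln3 (chr7:126583340-126583397, minus strand) and Gla (chrX:134601182-134601244, minus strand) had 2 copies each, as did Atp6v0b, which is not printed. Atp6v0d1 (chr8:105566050-105566079, minus strand), Atp6v0e (chr17:26676387-26676416, plus strand) and Atp6v1a (chr16:44139373-44139402, minus strand) had 1 each, as did Lgmn (chr12:102439124-102439153, minus strand) and Gaa (chr11:119267811-119267840, plus strand).
Lamp1: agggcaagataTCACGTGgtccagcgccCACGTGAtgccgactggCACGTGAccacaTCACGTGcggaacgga
Cln3: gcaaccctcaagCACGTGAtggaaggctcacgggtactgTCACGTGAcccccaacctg
Gla: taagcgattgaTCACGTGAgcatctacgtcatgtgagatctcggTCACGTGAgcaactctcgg
Atp6v0d1: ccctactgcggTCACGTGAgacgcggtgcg
Atp6v0e: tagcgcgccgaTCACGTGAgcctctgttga
Atp6v1a: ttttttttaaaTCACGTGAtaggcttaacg
Lgmn: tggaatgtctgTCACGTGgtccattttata
Gaa: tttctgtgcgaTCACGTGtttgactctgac

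The members with the E-box were Arsa, Atp6v0b, Atp6v0d1, Atp6v0e, Atp6v1a, Cln3, Gaa, Gla, Glb1, Lamp1, Lgmn, Naglu and Sgsh. Their differences ran from -0.10 (Atp6v0d1) to 0.51 (Lgmn), with a median of 0.07, and 9 of 13 lay above 0. Lamp1, with the most copies, differed by -0.03. The 32 members without it had a median of 0.01, with 16 above 0 and 16 below. Among array genes the median was -0.01 both with and without the E-box. Above 0 lay 291 of 603 array genes with it and 4321 of 9284 without it. Neither set of members held a gene past the adjusted test.

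**Figure D2:**
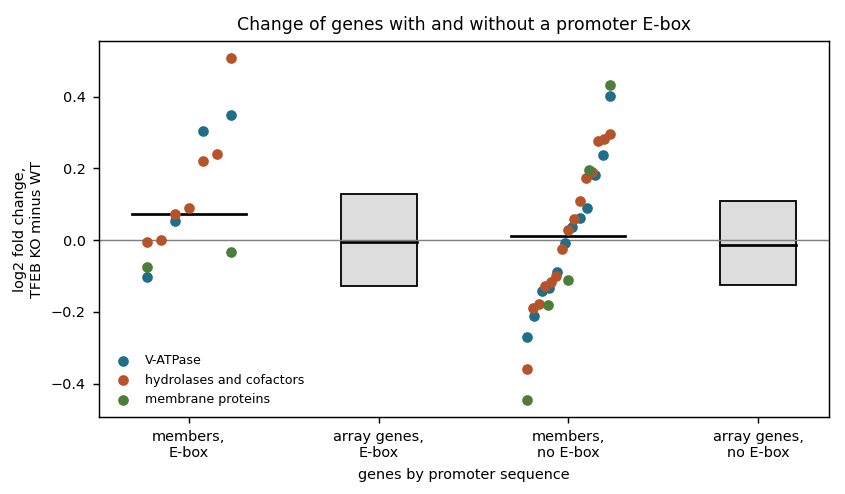
Log2 difference (TFEB KO minus WT) of members with and without the 7-base E-box in their RefSeq promoter, as points with a line at the median, beside boxes from the lower to the upper quartile of all array genes with and without it. The medians are 0.07 for the 13 members with the E-box and 0.01 for the 32 without, and -0.01 for both sets of array genes.

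Of the 21 V-ATPase genes 13 lay above 0 and 8 below, with a median of 0.06, and 0 passed the adjusted test. The V0 subunits had a median of 0.04 and the V1 subunits one of 0.08. At an unadjusted p of 0.05, 4 were higher (19%, against 8.49% of all genes), namely Atp6v1h, Atp6ap2, Atp6v0e and Atp6v0b, and 1 was lower (4.76%, against 8.66%), Atp6v0e2.

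Atp6v1h, whose product is needed for V1 to work on V0, read 8.03, 8.18 and 8.04 in WT and 8.33, 8.60 and 8.69 in TFEB KO. All TFEB KO arrays were above all WT arrays, with TFEB KO 1 the lowest of them. The difference was 0.45 ± 0.12 (SE, 95% interval 0.19 to 0.72, limma adjusted p = 0.099). Without the array of TFEB KO 1 it passed the test at 0.56 (adjusted p = 0.046), and without each of the other arrays it did not, the adjusted p reaching 0.31.

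Atp6ap2, an accessory protein of the pump also known as the (pro)renin receptor, read 9.33, 9.56 and 9.41 in WT and 9.98, 9.82 and 9.71 in TFEB KO. The groups did not overlap. The difference was 0.40 ± 0.11 (95% interval 0.15 to 0.65, adjusted p = 0.11), on a probe set of a type that can share sequence with other transcripts. The brightest probe sets of Atp6v0b and Laptm4b were of the same type. The dimmer probe sets of Atp6ap2 gave 0.35 and 0.33 (adjusted p = 0.17 and 0.29). The other accessory gene, Atp6ap1, differed by -0.09 (adjusted p = 0.74).

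In the membrane part, Atp6v0e encodes the small e subunit and Atp6v0e2 its paralog. Atp6v0e read 8.66, 8.67 and 8.54 in WT and 9.17, 8.93 and 8.82 in TFEB KO, a difference of 0.35 ± 0.11 (adjusted p = 0.17). Atp6v0e2 read 9.91, 9.84 and 9.96 in WT and 9.53, 9.78 and 9.60 in TFEB KO, a difference of -0.27 ± 0.10 (adjusted p = 0.22). The groups did not overlap for either gene, and the paralogs differed in opposite directions. Atp6v0b, of the proton-carrying ring, read 9.73, 9.76 and 9.35 in WT and 9.78, 10.02 and 9.96 in TFEB KO, a difference of 0.30 ± 0.13 (adjusted p = 0.28). For Atp6v0b the groups were separated by little, WT 2 lying just under TFEB KO 1, and its dimmer probe sets gave 0.23 and 0.07 (adjusted p = 0.25 and 0.80).

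The groups also did not overlap for Atp6v1c1, the widely expressed C subunit (0.18, adjusted p = 0.42), Atp6v1b2, the widely expressed B subunit (-0.10, adjusted p = 0.62), Atp6v0a4, the a subunit isoform of kidney (-0.14, adjusted p = 0.49), and Atp6v1c2 (-0.13, adjusted p = 0.50). Atp6v0a4 and Atp6v1c2 were dim, at percentiles 13.5 and 25.1 of brightness over all probe sets. For Atp6v0a4 the groups were separated by little, WT 2 reading 3.9775 and TFEB KO 1 reading 3.9691. In all, the groups did not overlap for 5 V-ATPase genes that were higher (23.8%, against 10.8% of all genes). They did not overlap for 4 that were lower (19%, against 12.9%). The smallest absolute differences were those of Atp6v1b1, a B subunit isoform of kidney (-0.01), Atp6v0a1 (0.04) and Atp6v1a, the catalytic A subunit (0.05). The remaining subunits, Atp6v0a2, Atp6v0d1, Atp6v1d, Atp6v1e1, Atp6v1e2, Atp6v1f, Atp6v1g1 and Atp6v1g2, ran from -0.21 (Atp6v1e2) to 0.24 (Atp6v1g2).

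**Figure D3:**
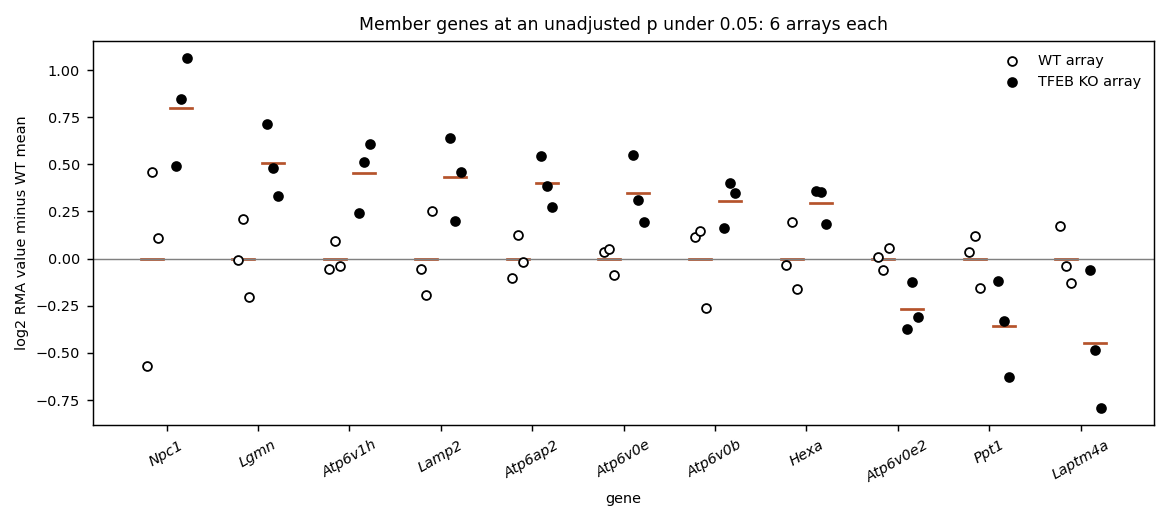
Level on each array of the 8 higher and 3 lower members at an unadjusted p of 0.05 (limma), with a line at each group mean. Values are log2 minus the mean of the 3 WT arrays for that gene, and genes are ordered by difference. Npc1 is 0.49 to 1.06 above its WT mean on the TFEB KO arrays. The other members are not drawn.

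The 24 hydrolases and cofactors had a median difference of 0.07, with 15 above 0 and 9 below, and 0 passed the adjusted test. At an unadjusted p of 0.05, Lgmn and Hexa were higher (8.33%, against 8.49% of all genes) and Ppt1 was lower (4.17%, against 8.66%). By substrate, the medians were 0.11 for the 8 genes of sphingolipid breakdown and 0.07 for the 6 of glycosaminoglycan breakdown. They were -0.07 for the 4 of glycoprotein breakdown and -0.18 for the 3 that act on proteins. Those 3 were Lgmn (0.51), Tpp1 (-0.18) and Ppt1 (-0.36). The 2 genes of cholesterol handling, Lipa and Npc2, differed by 0.17 and 0.28, and Gaa, the 1 gene of glycogen breakdown, by 0.22.

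Lgmn, a cysteine protease that cuts after asparagine, read 7.73, 7.95 and 7.53 in WT and 8.45, 8.21 and 8.07 in TFEB KO. The groups did not overlap, and TFEB KO 1 was the highest and WT 3 the lowest. The difference was 0.51 ± 0.14 (SE, 95% interval 0.19 to 0.83, limma adjusted p = 0.11). Hexa, the alpha subunit of the enzyme that degrades GM2 ganglioside, read 9.779, 10.004 and 9.649 in WT and 10.167, 10.163 and 9.993 in TFEB KO. Its groups overlapped by WT 2, and the difference was 0.30 ± 0.12 (95% interval 0.03 to 0.56, adjusted p = 0.24). Gm2a, the activator that presents the same ganglioside to that enzyme, differed by 0.27 (adjusted p = 0.31), and its dimmer probe set by -0.11.

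Ppt1, which removes palmitate from proteins, read 7.49, 7.57 and 7.30 in WT and 7.34, 7.12 and 6.83 in TFEB KO. TFEB KO 1 lay within the WT range and the other TFEB KO arrays below it. The difference was -0.36 ± 0.14 (95% interval -0.69 to -0.03, adjusted p = 0.25), with -0.27 on the dimmer probe set. Tpp1, a protease that takes tripeptides from the ends of proteins, read 10.78, 10.72 and 10.82 in WT and 10.51, 10.59 and 10.69 in TFEB KO (-0.18, adjusted p = 0.37). Smpd1, the acid sphingomyelinase, read 10.16, 10.30 and 10.23 in WT and 10.01, 10.09 and 10.02 in TFEB KO (-0.19, adjusted p = 0.32). For Tpp1 and Smpd1 all TFEB KO arrays were below all WT arrays (2 of 24 hydrolases, 8.33%, against 12.9% of all genes).

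Gaa, the acid glucosidase that digests glycogen in lysosomes, read 10.20, 10.46 and 10.41 in WT and 10.43, 10.70 and 10.59 in TFEB KO. TFEB KO 1 lay below WT 2, so the groups overlapped, and the difference was 0.22 with an interval of -0.04 to 0.48 (adjusted p = 0.37). The smallest absolute differences were those of Arsa, which removes sulfate from sulfatides (0.00), Naglu, of heparan sulfate breakdown (-0.00), and Man2b1, a mannosidase of glycoproteins (-0.03). The interval was -0.20 to 0.20 for Arsa and -0.38 to 0.33 for Man2b1. The remaining genes, Lipa, Npc2, Fuca1, Manba, Neu1, Galns, Gusb, Ids, Idua, Sgsh, Asah1, Gla, Glb1 and Psap, ran from -0.13 (Manba) to 0.28 (Npc2).

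Single arrays stood out among the hydrolases. TFEB KO 1 was the highest of the 6 arrays for 12 of 24 hydrolases (50%), against 18.7% of all genes, 2 of 21 V-ATPase genes (9.52%) and 2 of 9 membrane proteins (22.2%). WT 3 was the lowest for 9 of 24 hydrolases (37.5%), against 17.9% of all genes. The mean hydrolase level relative to the WT mean was 0.02, 0.07 and -0.09 in WT and 0.17, 0.06 and -0.04 in TFEB KO, so the groups overlapped. The same mean over macrophage markers was 0.26, 0.01 and -0.27 in WT and 1.20, 0.69 and 0.68 in TFEB KO, also highest on TFEB KO 1 and lowest on WT 3. The summed hydrolase level was also highest on TFEB KO 1 (13.81) but lowest on TFEB KO 3 (13.61), with WT 3 at 13.66. Among the other marker lists, the osteoclast mean was also highest on TFEB KO 1 (0.51) and lowest on WT 3 (-0.16). On that list TFEB KO 2 and TFEB KO 3 lay close to WT 3 (-0.15 and -0.13). The fibroblast mean was highest on TFEB KO 1 (0.43) but lowest on TFEB KO 2 (-0.35). The endothelial mean was lowest on TFEB KO 1 (-0.70), and the muscle fiber mean was highest on TFEB KO 3 (0.02). The part of RNA from macrophages or these other cell types in the hydrolase values was not tested. Without TFEB KO 1 the median hydrolase difference was 0.04, and without WT 3 it was 0.03.

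The V-ATPase mean relative to WT was -0.03, 0.00 and 0.02 in WT and 0.05, 0.09 and 0.08 in TFEB KO. These means did not overlap between groups, with WT 3 and TFEB KO 1 closest to each other. The summed level did overlap, at 14.03, 14.04 and 14.25 in WT and 14.24, 14.14 and 14.25 in TFEB KO. It was highest of all 6 arrays on WT 3, where Atp6v1g1, the brightest V-ATPase gene, read 12.53. For the membrane proteins the means were -0.11, 0.09 and 0.02 in WT and 0.10, 0.04 and 0.08 in TFEB KO, and the groups overlapped. Endothelial markers lay 0.58 to 0.70 below the WT mean on the TFEB KO arrays, and their part in these values was not tested.

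**Figure D4:**
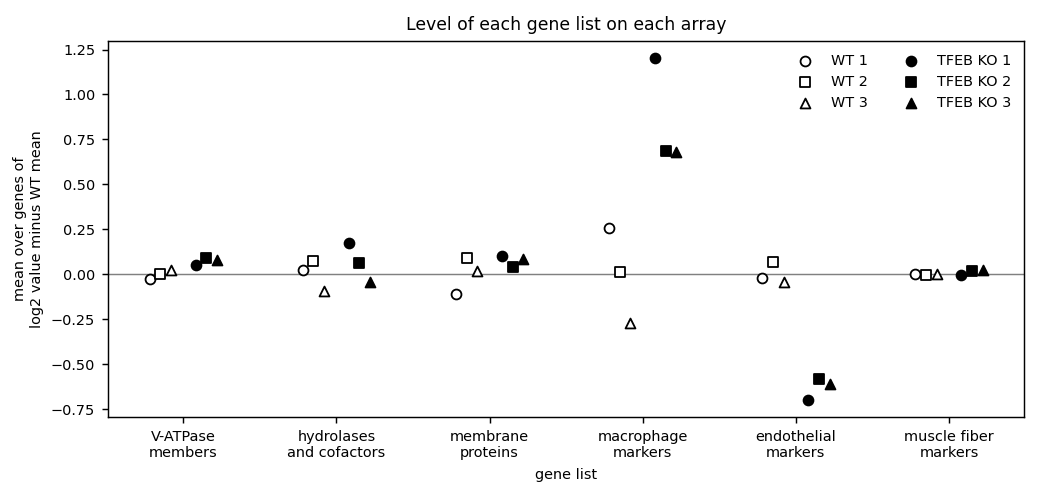
Mean level of each member group and of the macrophage, endothelial and muscle fiber markers on each array, relative to the WT mean (log2). Macrophage markers are highest on TFEB KO 1 (1.20) and lowest on WT 3 (-0.27). The hydrolase means are too, on a much smaller scale (0.17 and -0.09). Osteoclast markers, which are not drawn, have the same extremes (0.51 and -0.16), but with TFEB KO 2 and TFEB KO 3 close to WT 3 (-0.15 and -0.13).

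The 9 membrane proteins had a median difference of -0.03, with 4 above 0 and 5 below, and 0 passed the adjusted test on the brightest probe set. At an unadjusted p of 0.05, Npc1 and Lamp2 were higher (22.2%, against 8.49% of all genes) and Laptm4a was lower (11.1%, against 8.66%). Npc1 read 7.68, 8.71 and 8.36 in WT and 8.74, 9.10 and 9.31 in TFEB KO. The groups did not overlap, but WT 1 lay far below the other WT arrays and WT 2 just under TFEB KO 1. The difference was 0.80 ± 0.25 (SE, 95% interval 0.22 to 1.38, limma adjusted p = 0.16), and it moved between 0.52 and 1.03 when single arrays were left out. Npc2, the soluble partner that hands cholesterol to NPC1 and is counted with the cofactors, differed by 0.28 (adjusted p = 0.35).

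Laptm4a read 12.74, 12.53 and 12.44 in WT and 12.51, 12.08 and 11.78 in TFEB KO. TFEB KO 1 lay within the WT range. The difference was -0.45 ± 0.18 (95% interval -0.85 to -0.04, adjusted p = 0.25), and it ran from -0.64 to -0.27 when single arrays were left out. Its relative Laptm4b differed by 0.10 (adjusted p = 0.72).

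Lamp1 and Lamp2 encode the heavily glycosylated proteins that line the lysosomal membrane, and Lamp2 is also needed for autophagosomes to mature in muscle. Lamp1 read 12.27, 12.35 and 12.29 in WT and 12.23, 12.32 and 12.26 in TFEB KO, a difference of -0.03 with an interval of -0.23 to 0.16 (adjusted p = 0.89). Lamp2 on its brightest probe set read 10.43, 10.29 and 10.73 in WT and 11.12, 10.68 and 10.94 in TFEB KO. There WT 3 lay above TFEB KO 2, and the difference was 0.43 ± 0.15 (95% interval 0.09 to 0.78, adjusted p = 0.19).

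Lamp2 had 3 dimmer probe sets, all with WT and TFEB KO arrays that did not overlap. The share of all dimmer probe sets without overlap is not given here. These 3 probe sets read the same 6 RNA samples, so they are not independent of each other. The second by brightness read 10.36, 10.36 and 10.43 in WT and 10.93, 10.75 and 10.86 in TFEB KO (0.46, adjusted p = 0.0502). The third read 8.76, 8.81 and 8.90 in WT and 9.56, 9.48 and 9.47 in TFEB KO, and the dimmest 7.66, 7.53 and 7.65 in WT and 8.31, 7.97 and 8.26 in TFEB KO (0.57, adjusted p = 0.0506). The third rose by 1.60-fold, a difference of 0.68 ± 0.09 (95% interval 0.48 to 0.88, adjusted p = 0.017), from a mean of 8.82 ± 0.07 to 9.50 ± 0.05 (SD, n = 3 each). It was the only one of the 47 dimmer probe sets of all members to pass the test (2.13%, against 0.601% higher among the 7987 dimmer probe sets of all genes). Under other settings the second also passed with dim probe sets left out (adjusted p = 0.0447), with trended and robust moderation (0.0295) and with array weights (0.0401). The dimmest passed under the same settings (0.0459, 0.0411 and 0.0417) and after a second quantile normalization (0.0465). The second did not pass after that normalization (0.0518), a 75th percentile shift (0.0616) or with the replicate block (0.0725). The dimmest did not pass after that shift (0.0568) or with that block (0.0513). With single arrays left out, both passed in 0 of 6 fits (adjusted p 0.0787 to 0.185 for the second and 0.0615 to 0.167 for the dimmest). The third no longer passed without WT 1 (adjusted p = 0.085), WT 2 (0.070) or TFEB KO 2 (0.060), while its difference stayed between 0.65 and 0.72 when any single array was left out. Which Lamp2 transcripts each probe set reads was not examined.

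**Figure D5:**
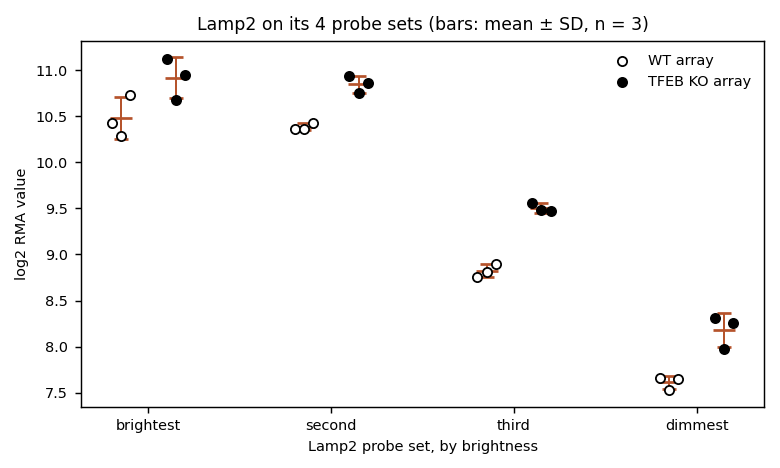
Log2 value of each array on the 4 Lamp2 probe sets, from the brightest to the dimmest, with the mean and SD of each group (n = 3). The groups overlap on the brightest and are apart on the 3 others, and the third (8.82 in WT, 9.50 in TFEB KO) passed the test.

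The other membrane proteins were Cln3, the protein altered in juvenile Batten disease (-0.07, adjusted p = 0.74), Scarb2, the receptor that brings glucocerebrosidase to lysosomes (-0.11, adjusted p = 0.58), Ctns, the cystine exporter (-0.18, adjusted p = 0.55), and Mcoln2, a cation channel (0.20, adjusted p = 0.47). With Laptm4b, Lamp1 and Cln3 had the smallest absolute differences of the group.

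Probe sets of a gene did not always move alike. Of the 47 dimmer probe sets 17 differed from the brightest of their gene in sign (36.2%, against 35.3% over all genes). At an unadjusted p of 0.05, 8 were higher (17%, against 6.99% of all dimmer probe sets), 3 of them of Lamp2, and 5 were lower (10.6%, against 10.9%). Scarb2 gave -0.11 on the brightest and 0.28 on a dimmer one (adjusted p = 0.21), and Atp6v1a 0.05 and 0.32 (adjusted p = 0.13). Psap, the precursor of the saposins that help sphingolipid hydrolases, gave -0.10 and -0.44 (adjusted p = 0.18), and Fuca1, the lysosomal fucosidase, -0.12 and -0.40 (adjusted p = 0.12).

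Of 48 other lysosomal genes listed beside the members, 32 were measured, 0 passed the adjusted test and the median difference was 0.05. At an unadjusted p of 0.05, 4 were higher (12.5%, against 8.49% of all genes), namely Cd68 (1.01, adjusted p = 0.073), Laptm5 (0.78, adjusted p = 0.065), Scpep1 (0.64, adjusted p = 0.17) and Cd164 (0.29, adjusted p = 0.24), and 2 were lower (6.25%, against 8.66%), Creg1 (-0.28, adjusted p = 0.25) and Tmem192 (-0.20, adjusted p = 0.29). Cd68 and Laptm5 are also on the macrophage list. Without them the median over 30 genes was 0.04, and 2 were higher and 2 lower (6.67% each).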

How the data were processed

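Muscle RNA of 3 WT and 3 TFEB KO mice was measured on 1 array per mouse, called biological replicates per the labels. The deposited log2 values, 1 per probe set, were made by the authors from scanned arrays with RMA in the R package affy. The sources used here give no versions. Of 22690 probe sets 64 controls were left out and 22626 tested. By the platform annotation 20380 name 1 gene, 691 several and 1555 none. All 54 members were found in RefSeq by Entrez ID, and 0 symbols changed.

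Groups were compared with limma 3.58.1 (lmFit, eBayes) in R 4.3.3, two-sided, all 6 arrays, no covariate, Benjamini-Hochberg adjustment over all tested probe sets and a threshold of 0.05. Errors of differences are SE from limma. A gene was judged on its brightest probe set. Intervals are 95%. The fit was tested on simulated data. Promoter letters were searched with Python 3.11.15, and tables used pandas 2.3.3, NumPy 2.4.6, SciPy 1.17.1 and matplotlib 3.10.9. No set test was run.

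The text gives array values for members at an unadjusted p of 0.05, values for those whose groups do not overlap and for the 3 smallest absolute differences per group, and ranges for the rest. Beyond this rule, and with values known, it gives dimmer probe sets, the differences of Atp6ap1, Gaa, Gm2a, Npc2, Scarb2, Psap, Fuca1, Ctns and Mcoln2, the array values of Gaa, Lamp1, Tpp1 and Smpd1, and 6 other lysosomal genes. The members and lists were chosen with earlier results of these data known. Alternatives were another normalization, a filter on dim probe sets, other moderation, array weights, a replicate block, the methods' t-test, the mean of all probe sets and each array left out. The methods' t-test is a two-sided Student's t-test, which the study names among its general tests. For its lists of array genes the study names an FDR under 0.05. Arrays give no depth, and their number limits the precision.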

Additional observations from a re-analysis of the deposited data

How the results depend on the processing

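Of the alternatives run, a second quantile normalization, a shift to a common 75th percentile, a filter on dim probe sets (which left 50 members), array weights, trended and robust moderation, the replicate block and the methods' t-test after adjustment all gave 0 members higher and 0 lower. The methods' t-test without adjustment called 4 higher (Atp6v0e, Atp6v1h, Atp6ap2 and Lgmn) and 3 lower (Atp6v0e2, Tpp1 and Smpd1). The share of all genes that it called is not given here. Its counts, here and below, can therefore not be read as particular to lysosomal genes. Averaging each gene over its probe sets called 1 higher, Lamp2 (0.54, adjusted p = 0.040). With single arrays left out, 0 to 1 were higher (Atp6v1h without TFEB KO 1) and 0 lower. Among the other lysosomal genes, the count past the test was 1 with trended and robust moderation, 1 with array weights and 1 with averaged probe sets (Laptm5 each time), 2 with the replicate block (Cd68 and Laptm5), and 3 by the methods' t-test without adjustment (Tmem192, Cd68 and Laptm5). The median difference of V-ATPase genes was 0.0178 with averaged probe sets and 0.0342 to 0.127 with single arrays left out, the highest without WT 3. That of hydrolases was -0.00 with averaged probe sets and 0.03 to 0.12 with single arrays left out, and that of membrane proteins was 0.0317 with averaged probe sets. Where a value changed, the cause was not tested. The replicate numbers are shared between groups without a stated pairing. Deviations of same-numbered arrays correlated at 0.09, 0.05 and 0.27, and 4 of 6 arrays correlated best with their own number. The replicate block called 297 probe sets (173 higher, 124 lower) against 361 (170 higher, 191 lower) without it, and called 0 members. Signal over background was not measured here.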
